A study of Saccharomyces cerevisiae with 8 samples.

Results

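The 35 genes described here act at the start of the yeast cell cycle (G1/S) and in the copying of DNA, and were taken by symbol from the platform annotation of the arrays. They comprise 4 G1 cyclin genes, 2 S-phase cyclin genes, the transcription factor gene SWI4, 2 genes of origin licensing and firing, 6 helicase genes, 8 polymerase genes, 6 of the sliding clamp and its loader, 3 of the single-strand binding protein, 2 of Okazaki fragment processing and 1 of ribonucleotide reductase. Each was read by 1 probe set, out of 5498 probe sets for 5449 genes of Saccharomyces cerevisiae, and 32 of the 35 passed a filter that left out the dimmest 20% of probe sets. CDC6, CLB6 and SWI4 did not pass it. The filter level, on the mean over all arrays, was a signal of 249, and 6 of the 32 (MCM6, PRI1, DPB2, DPB3, CDC45 and PCL1) lay under it in at least 1 strain and so passed through the strains in which they were brighter.

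RNA came from cultures of 3 strains. The strain esa1 sup2- carries a mutant esa1 together with a mutation called sup2-, and it had 3 arrays. The strain ESA1 sup2- carries the sup2- mutation with ESA1 intact and also had 3 arrays. The strain ESA1 SUP2, the wild type, had 2 arrays. ESA1 encodes an essential histone acetyltransferase, and the suppressor bypasses the need for it, so both mutants share sup2- and no strain carries esa1 without it. The labels do not name the gene behind SUP2 and give no mating type or ploidy. All cultures were 10 mL of YPD with 2% glucose grown overnight at 30 °C until saturated, and 5 µg of total RNA was labelled per array. The labels do not state whether replicates were separate cultures, and the p-values therefore cover the spread among these arrays alone, which may be technical.

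In budding yeast the cyclin Cln3 starts the cell cycle by relieving the repressor Whi5 from the transcription factor SBF, which is made of Swi4 and Swi6. SBF and its relative MBF, made of Mbp1 and Swi6, then switch on the genes for the cyclins Cln1, Cln2, Clb5 and Clb6 and for much of the replication machinery. Origins are licensed when Cdc6 helps load the MCM helicase, and Cdc45 joins it when they fire. Polymerase alpha with primase lays down primers, the RFC complex loads the PCNA clamp, polymerases epsilon and delta extend the strands, RPA coats exposed single strands, and Rad27 and Cdc9 trim and join the Okazaki fragments. As a culture uses up its glucose, cells stop dividing and rest mostly before this transition.

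The signals are probe set intensities that had been scaled before deposit to nearly the same mean on every array (500.2 to 500.3 after trimming 2% of probe sets at either end). ESA1 itself (YOR244W) had signals of 1.19, 3.34 and 0.267 on the esa1 sup2- arrays, 819, 894 and 877 on the ESA1 sup2- arrays and 1216 and 1067 on the ESA1 SUP2 arrays. It lay below background on all 3 esa1 sup2- arrays, where background was the 99th percentile of probe sets for genes outside the yeast gene table (8.23 to 12.4 over the 8 arrays). All 35 genes described here lay above that bound on all 8 arrays. Within ESA1 sup2-, replicate 2 was the odd array: its log2 differences from replicates 1 and 3 had SDs of 0.210 and 0.206, against 0.0900 between those others. The 3 esa1 sup2- arrays differed more from each other (0.262 to 0.323), and the ESA1 SUP2 pair less (0.111). Each strain was processed on its own fluidics station, so station and strain cannot be told apart.

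The comparison of ESA1 sup2- with ESA1 SUP2 asks what went with the suppressor mutation while ESA1 was present. Genes called higher in ESA1 sup2- included the cyclin genes CLN2, CLN3 and CLB5, the clamp gene POL30, and 4 of the 6 helicase genes. DPB2, a subunit of polymerase epsilon, showed the largest difference of the 32, with a signal of 569.9 ± 4.96 in ESA1 sup2- (SD, n = 3) and 156 ± 13.3 in ESA1 SUP2 (SD, n = 2). The G1 cyclin gene CLN2 and the clamp gene POL30 also exceeded a log2 fold change of 1. Of the 32, 21 were called higher and 0 lower at a limma adjusted p under 0.05, against a background of 28.5% higher and 22.1% lower among all 4398 probe sets tested (50.6% called). The share called higher, 65.6%, was above that background, and at an unadjusted p under 0.05 the counts were 23 and 0. The median log2 fold change of the 32 was 0.40, against 0.0058 over all probe sets. On the arrays themselves, 26 of the 32 had every ESA1 sup2- signal above every ESA1 SUP2 signal and 0 had the opposite. The background over the 4398 probe sets tested was 40.4% and 37.4% (77.8% in either direction). Over all 35, filtered genes included, the counts were 29 and 0. In bulk RNA of this kind, a smaller share of cells that express a gene and less RNA per cell cannot be told apart. With no filter on dim probe sets all 35 could be tested, and 23 were higher and 0 lower, against a background of 26.1% and 23.4%. Without ESA1 SUP2 replicate 2 the count among the 32 was 13 higher, and without ESA1 sup2- replicate 2 it was 18, with 0 lower in both.

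The comparison of esa1 sup2- with ESA1 sup2- asks what went with the esa1 mutation in the presence of the suppressor. All 4 polymerase alpha-primase genes, and DPB2 and DPB3 of polymerase epsilon, were lower in esa1 sup2-, while the cyclin gene CLN3 and the clamp loader gene RFC5 were higher. DPB3, a small subunit, showed the largest decrease, with a signal of 240.0 ± 31.6 in esa1 sup2- and 542 ± 27.1 in ESA1 sup2- (SD, n = 3 each). Of the 32, 4 were called higher and 15 lower, against a background of 31.8% higher and 35.8% lower (67.6% called). The share called in either direction, 59.4%, was below that background, while the share called lower, 46.9%, was above it. The median log2 fold change was -0.19, against -0.025 over all probe sets. Signals did not overlap for 3 of the 32 in the higher direction (RFC2, RFC5 and CLN3) and for 16 in the lower, against a background of 33.5% and 37.3% (70.8% in either direction). Over all 35 the counts were 3 and 18. With no filter, 4 of the 35 were higher and 17 lower, against a background of 27.7% and 36.9%. The split depended on how arrays were scaled. It was 6 higher and 8 lower with arrays centred on their medians, 5 and 6 with arrays scaled on the poly-A controls, and 1 and 19 with scaling on the hybridization controls. Those scalings moved the median of all probe sets by 0.13, 0.22 and -0.11, and the median of the 32 differed from the median of all probe sets by -0.16, -0.18 and -0.15, against -0.16 as deposited. Without ESA1 sup2- replicate 2, which stood apart, 3 were higher and 13 lower, and the higher count was 1 without esa1 sup2- replicate 2, ESA1 sup2- replicate 1 or ESA1 sup2- replicate 3 and 2 without either ESA1 SUP2 array.

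The esa1 sup2- strain was also set against the wild type, from which it differs in both genes. POL30, RNR1 and CLN2 were more than 1 log2 unit higher in esa1 sup2- than in ESA1 SUP2, and DPB3 and PRI1 were among those lower. Of the 32, 15 were called higher and 5 lower, against a background of 37.9% higher and 36.6% lower (74.5% called). Both the share called, 62.5%, and the share called lower, 15.6%, were below that background. The median was 0.16, against 0.015 over all probe sets. Signals of the 2 strains did not overlap for 17 of the 32 in the higher direction and for 6 in the lower, against a background of 41.8% and 40.0% (81.8% in either direction). Over all 35 the counts were 19 and 7. With no filter, 17 of the 35 were higher and 5 lower, against a background of 33.8% and 38.9%. The 5 lower calls were MCM4, MCM5, MCM7, PRI1 and DPB3, and the lower count was 2 with centring on medians, 1 with the poly-A controls and 3 without ESA1 SUP2 replicate 2. Each pair of these comparisons shares the arrays of 1 strain, so they are not independent of each other.

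**Figure D1:**
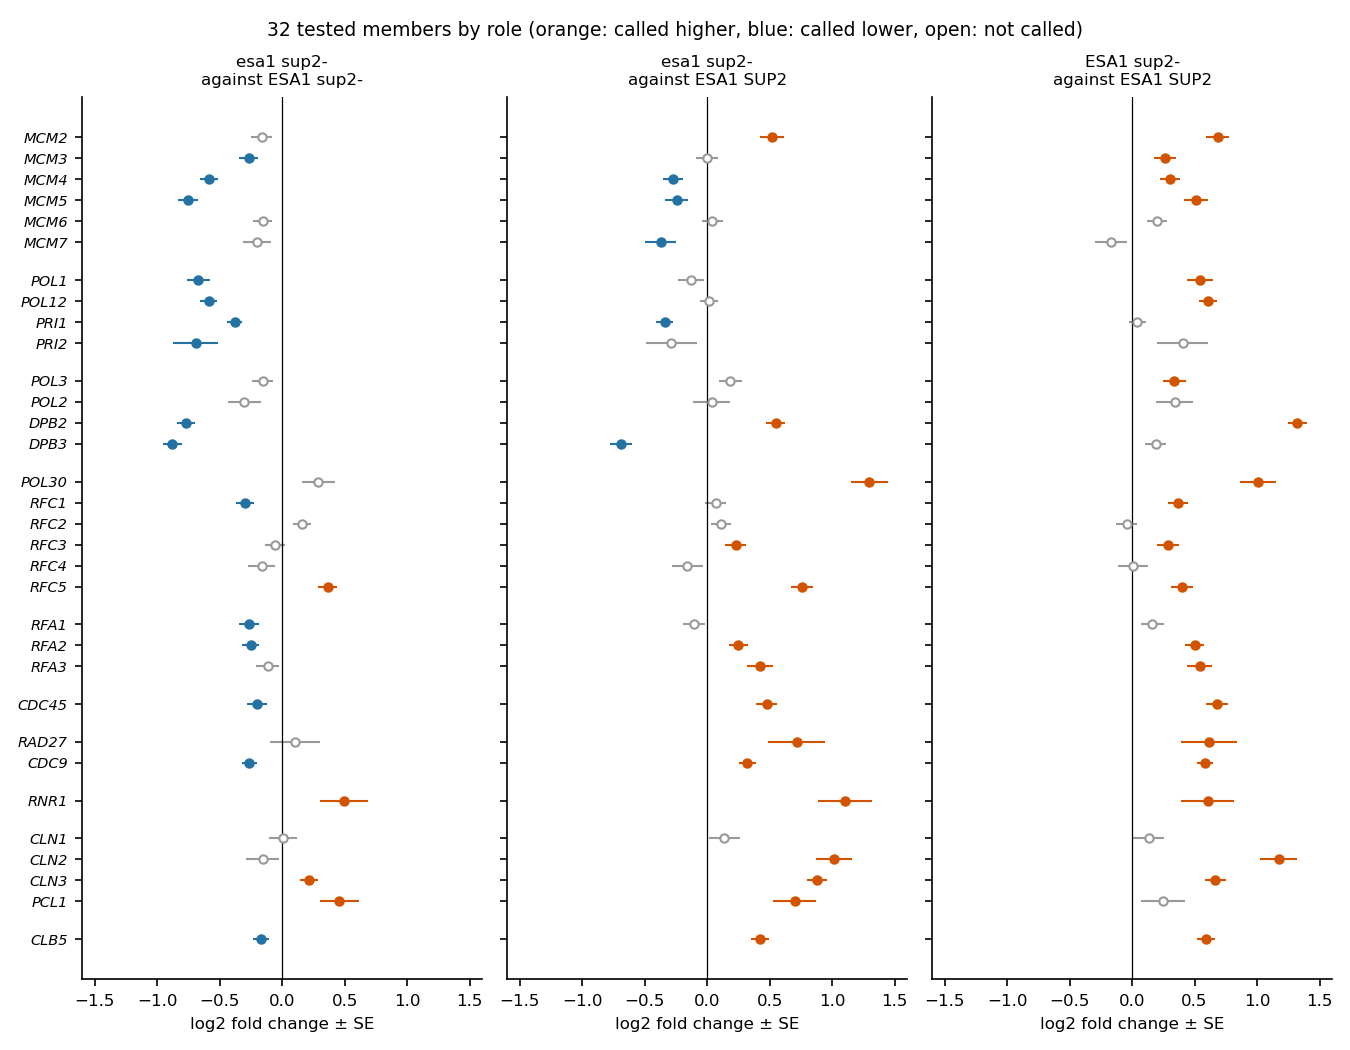
Log2 fold changes of the 32 genes that passed the filter (horizontal axis, bars are ± 1 SE) in each of the 3 comparisons, with genes ordered by role down the page. Orange points are called higher, blue lower and open points were not called. In the right panel, ESA1 sup2- against ESA1 SUP2, the called points all lie right of 0.

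Cyclins act first in this pathway. CLN3 (YAL040C), the cyclin that starts the transition, had signals of 1727, 1896 and 1667 on the esa1 sup2- arrays, 1510.0, 1467 and 1540.3 on the ESA1 sup2- arrays and 918 and 889 on the ESA1 SUP2 arrays. The 3 strains did not overlap, with esa1 sup2- above ESA1 sup2- and both above ESA1 SUP2. CLN3 exceeded ESA1 SUP2 by 0.88 log2 units (SE 0.081, limma adjusted p = 1.2e-05) in esa1 sup2- and by 0.67 log2 units (SE 0.081, limma adjusted p = 2.5e-04) in ESA1 sup2-. The difference between the mutants was 0.21 (SE 0.072, limma adjusted p = 0.029). That call was lost on leaving out any 1 array except esa1 sup2- replicates 1 and 3 (limma adjusted p up to 0.076), and also with quantile normalization or hybridization control scaling (limma adjusted p up to 0.429 over all alternatives).

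CLN2 (YPL256C), a cyclin gene driven by SBF that carries the cell past the start decision, had signals of 974, 683 and 896 on the esa1 sup2- arrays, 948, 1082 and 844 on the ESA1 sup2- arrays and 389 and 324 on the ESA1 SUP2 arrays. Every mutant array lay above both ESA1 SUP2 arrays, and the mutants overlapped each other. The log2 fold change against ESA1 SUP2 was 1.02 (SE 0.15, limma adjusted p = 2.1e-04) for esa1 sup2- and 1.17 (SE 0.15, limma adjusted p = 2.9e-04) for ESA1 sup2-. Its paralogue CLN1 (YMR199W) had signals of 621, 609.5 and 503 on the esa1 sup2- arrays, 519.7, 677 and 535 on the ESA1 sup2- arrays and 555 and 472 on the ESA1 SUP2 arrays. All 3 strains overlapped for CLN1, and it was not called in any comparison. Its log2 fold changes were 0.0035 (limma adjusted p = 0.980) between the mutants, 0.14 (limma adjusted p = 0.339) for esa1 sup2- against ESA1 SUP2 and 0.13 (limma adjusted p = 0.401) for ESA1 sup2- against ESA1 SUP2.

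PCL1 (YNL289W), a G1 cyclin that works with the kinase Pho85, had signals of 417, 539 and 389 on the esa1 sup2- arrays, 251, 405 and 237 on the ESA1 sup2- arrays and 249 and 207 on the ESA1 SUP2 arrays. The esa1 sup2- arrays lay above both ESA1 SUP2 arrays, and replicate 2 of ESA1 sup2-, at 405, was the single array of that strain to reach into the esa1 sup2- range. PCL1 was higher in esa1 sup2- than in ESA1 SUP2 by 0.70 log2 units (SE 0.17, limma adjusted p = 5.3e-03) and than in ESA1 sup2- by 0.46 log2 units (SE 0.16, limma adjusted p = 0.028). The second call was lost without esa1 sup2- replicate 2, ESA1 sup2- replicate 1 or ESA1 sup2- replicate 3 (limma adjusted p = 0.093, 0.095 and 0.100). ESA1 sup2- differed from ESA1 SUP2 by 0.24 (limma adjusted p = 0.271), which was not called.

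The S-phase cyclin gene CLB5 (YPR120C), whose product drives origin firing, had signals of 412, 452 and 414 on the esa1 sup2- arrays, 495, 512 and 479 on the ESA1 sup2- arrays and 299.6 and 277 on the ESA1 SUP2 arrays. No strains overlapped for CLB5, with ESA1 sup2- highest and ESA1 SUP2 lowest. CLB5 was above ESA1 SUP2 by 0.42 log2 units (SE 0.072, limma adjusted p = 6.5e-04) in esa1 sup2- and by 0.59 log2 units (SE 0.072, limma adjusted p = 2.6e-04) in ESA1 sup2-. Between the mutants it was lower in esa1 sup2- (log2 fold change -0.17, SE 0.065, limma adjusted p = 0.041), a call lost on leaving out any 1 array except esa1 sup2- replicate 2 (limma adjusted p up to 0.098). It was also lost with quantile normalization and median centring, and when the fit held the 2 strains alone. A block in the fit for replicate number or for fluidics module lost it too. Scaling on the poly-A controls turned the sign of that difference, to 0.037 (limma adjusted p = 0.869).

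CLB6 (YGR109C), the other S-phase cyclin gene, was among the dimmest 20% by its mean and had signals of 175, 278 and 222 on the esa1 sup2- arrays, 203, 241 and 205 on the ESA1 sup2- arrays and 69.8 and 61.1 on the ESA1 SUP2 arrays. All mutant arrays exceeded both ESA1 SUP2 arrays, and the mutants overlapped. With no filter on dim probe sets its log2 fold change against ESA1 SUP2 was 0.88 (limma adjusted p = 1.4e-04) in esa1 sup2- and 0.85 (limma adjusted p = 5.0e-04) in ESA1 sup2-, and between the mutants it was 0.027 (limma adjusted p = 0.831).

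SWI4 (YER111C), the DNA-binding subunit of SBF, was also among the dimmest 20%. It had signals of 134, 95.5 and 132 on the esa1 sup2- arrays, 177, 213 and 196 on the ESA1 sup2- arrays and 147 and 148 on the ESA1 SUP2 arrays. The esa1 sup2- arrays were all below both other strains, and the ESA1 sup2- arrays were all above ESA1 SUP2. In the fit with no filter SWI4 was lower in esa1 sup2- than in ESA1 sup2- (log2 fold change -0.39, limma adjusted p = 2.0e-03), and the difference from ESA1 SUP2 was -0.16 (limma adjusted p = 0.132), not called. ESA1 sup2- against ESA1 SUP2 was 0.24 (limma adjusted p = 0.048).

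**Figure D2:**
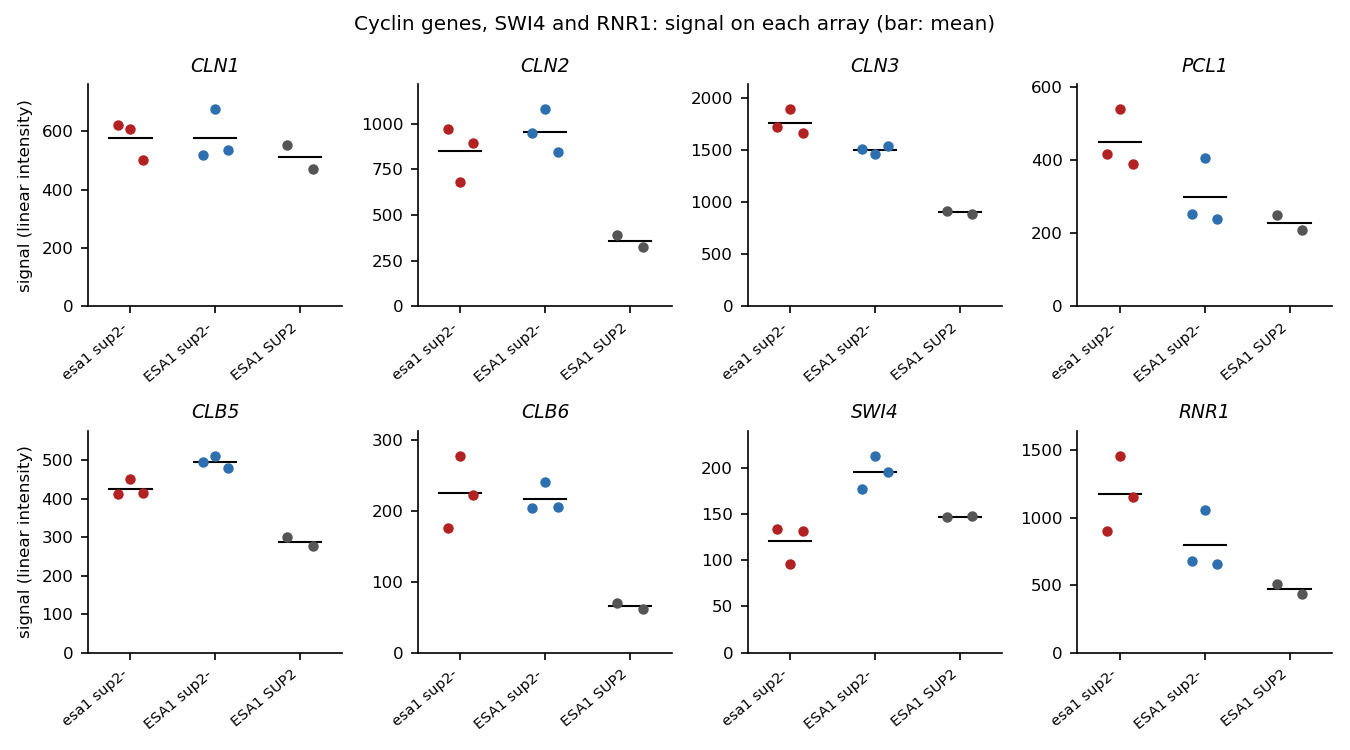
Signal (linear intensity, vertical axes from 0) of the 6 cyclin genes, SWI4 and RNR1 on each array of the 3 strains; points are arrays and bars are means. CLN2, CLN3, CLB5 and CLB6 have every mutant array above both ESA1 SUP2 arrays, CLN1 overlaps in all strains, and SWI4 is lowest in esa1 sup2-.

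RNR1 (YER070W), the large subunit of the ribonucleotide reductase that makes DNA precursors and a classic MBF target, had signals of 902, 1461 and 1158 on the esa1 sup2- arrays, 681, 1057 and 657 on the ESA1 sup2- arrays and 512 and 437 on the ESA1 SUP2 arrays. Every mutant array was above both ESA1 SUP2 arrays, and replicate 2 of ESA1 sup2- was the array of that strain that reached the esa1 sup2- range. RNR1 averaged 1173 ± 279.9 in esa1 sup2-, 798 ± 225 in ESA1 sup2- (SD, n = 3 each) and 474 ± 53.0 in ESA1 SUP2 (SD, n = 2). The log2 fold change of esa1 sup2- against ESA1 SUP2 was 1.10 (SE 0.21, limma adjusted p = 1.3e-03). The other calls were 0.60 (SE 0.21, limma adjusted p = 0.043) for ESA1 sup2- against ESA1 SUP2 and 0.50 (SE 0.19, limma adjusted p = 0.045) between the mutants. Both of these depended on single arrays. The call of ESA1 sup2- against ESA1 SUP2 was lost without ESA1 sup2- replicate 1 (limma adjusted p = 0.051), ESA1 sup2- replicate 2 (0.103), ESA1 SUP2 replicate 1 (0.103) or ESA1 SUP2 replicate 2 (0.209). The call between the mutants was lost on leaving out any 1 array except esa1 sup2- replicate 1 and ESA1 sup2- replicate 2 (limma adjusted p up to 0.145). It was also lost with hybridization control scaling, and the call of ESA1 sup2- against ESA1 SUP2 with quantile normalization, median centring or a pseudocount 4 times as large.

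The other reductase genes differed from each other. RNR2, a small subunit gene, had signals of 6715, 6764 and 6018 on the esa1 sup2- arrays, 3662, 3615 and 4058 on the ESA1 sup2- arrays and 5284 and 5944 on the ESA1 SUP2 arrays. It was highest in esa1 sup2- and lowest in ESA1 sup2-, with log2 fold changes of 0.76 (SE 0.076, limma adjusted p = 3.8e-05) between the mutants and -0.56 (SE 0.086, limma adjusted p = 8.4e-04) for ESA1 sup2- against ESA1 SUP2. RNR4, the other small subunit gene, was higher in esa1 sup2- than in ESA1 sup2- by 0.33 log2 units (SE 0.063, limma adjusted p = 1.5e-03), and ESA1 sup2- differed from ESA1 SUP2 by 0.011 (limma adjusted p = 0.915). RNR3, an alternative large subunit known for induction by DNA damage, had signals of 356, 353 and 441 on the esa1 sup2- arrays, 614, 154 and 547 on the ESA1 sup2- arrays and 441 and 434 on the ESA1 SUP2 arrays and was not called in any comparison. RNR3 and RNR4 were chosen after their values were seen. DUT1, which removes dUTP from the precursor pool, had signals of 2177, 2402 and 2416 on the esa1 sup2- arrays, 1460.5, 1470.1 and 1417 on the ESA1 sup2- arrays and 692 and 672 on the ESA1 SUP2 arrays. Its strains did not overlap, and it exceeded ESA1 SUP2 by 1.61 log2 units (SE 0.078, limma adjusted p = 2.8e-07) in esa1 sup2- and by 0.97 log2 units (SE 0.078, limma adjusted p = 3.7e-05) in ESA1 sup2-.

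The 2 origin genes were higher in both mutants than in ESA1 SUP2. CDC6 (YJL194W), which loads the MCM helicase, was among the dimmest 20% and had signals of 127, 126 and 114 on the esa1 sup2- arrays, 148, 149.8 and 149.6 on the ESA1 sup2- arrays and 67.1 and 53.7 on the ESA1 SUP2 arrays. The strains did not overlap, in the order ESA1 sup2-, esa1 sup2- and ESA1 SUP2 from high to low. With no filter its log2 fold change was 0.42 (limma adjusted p = 1.2e-04) in esa1 sup2- and 0.58 (limma adjusted p = 7.4e-05) in ESA1 sup2- against ESA1 SUP2, and -0.15 (limma adjusted p = 0.023) between the mutants. CDC45 (YLR103C), part of the active helicase, had signals of 272, 280.0 and 274 on the esa1 sup2- arrays, 308, 391 and 313 on the ESA1 sup2- arrays and 168 and 160.3 on the ESA1 SUP2 arrays and the same order of strains, again without overlap. Against ESA1 SUP2 it was higher by 0.48 log2 units (SE 0.087, limma adjusted p = 9.4e-04) in esa1 sup2- and by 0.68 log2 units (SE 0.087, limma adjusted p = 3.4e-04) in ESA1 sup2-. Between the mutants it was lower in esa1 sup2- (log2 fold change -0.20, SE 0.078, limma adjusted p = 0.043), a call lost on leaving out any 1 array except ESA1 sup2- replicate 1 (limma adjusted p up to 0.105), and with quantile normalization, median centring or poly-A control scaling (as near 0 as -0.014, limma adjusted p up to 0.946).

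The 6 MCM genes, whose products form 1 ring-shaped helicase, were not all called together. Their log2 fold changes between the mutants were all negative, from -0.75 to -0.16. They ran from -0.17 to 0.68 in ESA1 sup2- against ESA1 SUP2, and from -0.37 to 0.52 in esa1 sup2- against ESA1 SUP2. In ESA1 sup2- against ESA1 SUP2, 4 of the 6 were called higher (MCM2, MCM3, MCM4 and MCM5) and 0 lower. Between the mutants, 3 were lower in esa1 sup2- (MCM3, MCM4 and MCM5) and 0 higher. Against ESA1 SUP2, esa1 sup2- had MCM2 higher and MCM4, MCM5 and MCM7 lower. In the same order of comparisons the backgrounds were 28.5% higher and 22.1% lower, 31.8% and 35.8%, and 37.9% and 36.6%, and the 3 of 6 called between the mutants (50.0%) lay below the 67.6% called among all probe sets.

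MCM5 (YLR274W) had the largest difference, with signals of 305, 247 and 259 on the esa1 sup2- arrays, 522, 551 and 541 on the ESA1 sup2- arrays and 376 and 309 on the ESA1 SUP2 arrays. The ESA1 sup2- arrays were all above the others, and the esa1 sup2- arrays all lay below both ESA1 SUP2 arrays. MCM5 was lower in esa1 sup2- than in ESA1 sup2- (log2 fold change -0.75, SE 0.083, limma adjusted p = 6.5e-05), and higher in ESA1 sup2- than in ESA1 SUP2 by 0.51 log2 units (SE 0.093, limma adjusted p = 2.0e-03). The difference of esa1 sup2- from ESA1 SUP2, -0.24 (SE 0.093, limma adjusted p = 0.039), was lost without esa1 sup2- replicate 2 or 3, ESA1 sup2- replicate 1 or 3, or ESA1 SUP2 replicate 1 (limma adjusted p up to 0.314), and also with quantile normalization, median centring, or scaling on either set of controls, becoming 0.0024 with the poly-A controls.

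MCM4 (YPR019W) had signals of 507, 460.4 and 439 on the esa1 sup2- arrays, 759, 795 and 733 on the ESA1 sup2- arrays and 579 and 608 on the ESA1 SUP2 arrays. All strains were separate for MCM4, with esa1 sup2- lowest and ESA1 sup2- highest. It was lower in esa1 sup2- than in ESA1 sup2- (log2 fold change -0.58, SE 0.071, limma adjusted p = 1.2e-04) and than in ESA1 SUP2 (log2 fold change -0.28, SE 0.08, limma adjusted p = 0.011), and higher in ESA1 sup2- than in ESA1 SUP2 by 0.31 log2 units (SE 0.08, limma adjusted p = 0.012). With poly-A control scaling none of the 3 was called, and the second became -0.0021 (limma adjusted p = 0.993). The second was also lost with quantile normalization or median centring and without ESA1 SUP2 replicate 2 (limma adjusted p = 0.085), and the third without ESA1 SUP2 replicate 1 (0.096) or 2 (0.054).

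MCM2 (YBL023C) was the MCM gene called higher in esa1 sup2- than in ESA1 SUP2, with signals of 687, 679 and 829 on the esa1 sup2- arrays, 779.8, 865 and 851 on the ESA1 sup2- arrays and 467 and 477 on the ESA1 SUP2 arrays. Both mutants lay above ESA1 SUP2 and overlapped each other. It exceeded ESA1 SUP2 by 0.52 log2 units (SE 0.10, limma adjusted p = 9.5e-04) in esa1 sup2- and by 0.68 log2 units (SE 0.10, limma adjusted p = 5.4e-04) in ESA1 sup2-. MCM3 (YEL032W) had signals of 584, 519 and 469.8 on the esa1 sup2- arrays, 651, 660.5 and 654 on the ESA1 sup2- arrays and 509 and 541 on the ESA1 SUP2 arrays. Its ESA1 sup2- arrays were above all others, and esa1 sup2- and ESA1 SUP2 overlapped. MCM3 was lower in esa1 sup2- than in ESA1 sup2- (log2 fold change -0.27, SE 0.078, limma adjusted p = 0.014), a call lost with quantile normalization, median centring or poly-A control scaling (as near 0 as -0.049, limma adjusted p up to 0.839). The increase in ESA1 sup2- over ESA1 SUP2, 0.27 (SE 0.088, limma adjusted p = 0.032), was lost on leaving out any 1 array of those 2 strains (limma adjusted p = 0.063 to 0.183) and under the same 3 scalings.

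MCM7 (YBR202W), a further ring subunit, had signals of 513, 497 and 383 on the esa1 sup2- arrays, 507, 625 and 521 on the ESA1 sup2- arrays and 583 and 686 on the ESA1 SUP2 arrays. The esa1 sup2- arrays were all below ESA1 SUP2, and ESA1 sup2- overlapped both. Its log2 fold change in esa1 sup2- against ESA1 SUP2 was -0.37 (SE 0.13, limma adjusted p = 0.024), a call lost without esa1 sup2- replicate 3 (limma adjusted p = 0.052) or ESA1 SUP2 replicate 2 (0.174), and with quantile normalization, median centring or poly-A control scaling (up to 0.682). MCM6 (YGL201C) had signals of 269.8, 225 and 231 on the esa1 sup2- arrays, 270.0, 299 and 281 on the ESA1 sup2- arrays and 216 and 247 on the ESA1 SUP2 arrays and was not called in any comparison. Its esa1 sup2- and ESA1 SUP2 arrays overlapped, and ESA1 sup2- lay above ESA1 SUP2, with a log2 fold change of 0.20 (limma adjusted p = 0.071).

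The polymerase alpha-primase genes were all called between the mutants. POL1, POL12, PRI1 and PRI2 were all lower in esa1 sup2- than in ESA1 sup2- (4 of 4, median -0.63, against a background of 35.8% lower), and POL1 and POL12 were higher in ESA1 sup2- than in ESA1 SUP2 (2 of 4, background 28.5%). POL1 (YNL102W), the catalytic subunit, had signals of 546, 467 and 503 on the esa1 sup2- arrays, 814, 1014 and 809 on the ESA1 sup2- arrays and 561 and 564 on the ESA1 SUP2 arrays. The ESA1 sup2- arrays were well above the rest, and esa1 sup2- lay just below ESA1 SUP2. For POL1 the log2 fold change came to -0.67 (SE 0.094, limma adjusted p = 2.6e-04) between the mutants, 0.54 (SE 0.11, limma adjusted p = 2.9e-03) for ESA1 sup2- against ESA1 SUP2 and -0.13 (limma adjusted p = 0.295) for esa1 sup2- against ESA1 SUP2. POL12 (YBL035C), the regulatory subunit, had signals of 315, 352 and 355 on the esa1 sup2- arrays, 559, 582 and 581 on the ESA1 sup2- arrays and 344 and 329 on the ESA1 SUP2 arrays. Its ESA1 sup2- arrays stood alone, while esa1 sup2- and ESA1 SUP2 overlapped. POL12 was lower in esa1 sup2- than in ESA1 sup2- (log2 fold change -0.59, SE 0.065, limma adjusted p = 6.4e-05), and higher in ESA1 sup2- than in ESA1 SUP2 by 0.60 log2 units (SE 0.072, limma adjusted p = 2.4e-04).

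PRI1 (YIR008C), the catalytic primase subunit, had signals of 226, 218 and 231 on the esa1 sup2- arrays, 339.5, 328 and 319.8 on the ESA1 sup2- arrays and 333 and 301 on the ESA1 SUP2 arrays. Here esa1 sup2- was below both other strains, which overlapped. Its decrease in esa1 sup2- measured -0.38 (SE 0.06, limma adjusted p = 5.3e-04) against ESA1 sup2- and -0.34 (SE 0.068, limma adjusted p = 1.5e-03) against ESA1 SUP2, and neither was called with poly-A control scaling. PRI2 (YKL045W), the large primase subunit, had signals of 418, 434 and 799.8 on the esa1 sup2- arrays, 936, 920.0 and 938 on the ESA1 sup2- arrays and 711 and 638 on the ESA1 SUP2 arrays. Replicate 3 of esa1 sup2- was far above the other arrays of its strain and above both ESA1 SUP2 arrays. The log2 fold change of esa1 sup2- against ESA1 sup2- was -0.69 (SE 0.18, limma adjusted p = 8.4e-03). Against ESA1 SUP2 it was -0.29 (limma adjusted p = 0.224), not called, and -0.54 (limma adjusted p = 3.2e-04) without that array. ESA1 sup2- against ESA1 SUP2 was 0.40 (limma adjusted p = 0.127), and was called without that array too (limma adjusted p = 2.0e-03).

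Polymerase epsilon, which copies the leading strand, had subunits that moved in different ways. DPB2 (YPR175W), an essential accessory subunit, had signals of 309, 258 and 287 on the esa1 sup2- arrays, 565, 575 and 570.0 on the ESA1 sup2- arrays and 165 and 146 on the ESA1 SUP2 arrays. The strains did not overlap, with ESA1 sup2- highest and ESA1 SUP2 lowest. DPB2 was lower in esa1 sup2- than in ESA1 sup2- (log2 fold change -0.77, SE 0.069, limma adjusted p = 2.0e-05), and higher than in ESA1 SUP2 by 0.55 log2 units (SE 0.077, limma adjusted p = 1.7e-04) in esa1 sup2- and 1.32 (SE 0.077, limma adjusted p = 1.1e-05) in ESA1 sup2-. DPB3 (YBR278W), a small subunit with a histone fold, had signals of 224, 219 and 276 on the esa1 sup2- arrays, 573, 521 and 532 on the ESA1 sup2- arrays and 468 and 454 on the ESA1 SUP2 arrays. Both strains with ESA1 stood above esa1 sup2-. DPB3 was lower in esa1 sup2- than in ESA1 sup2- (log2 fold change -0.88, SE 0.078, limma adjusted p = 2.0e-05) and than in ESA1 SUP2 (log2 fold change -0.69, SE 0.087, limma adjusted p = 8.7e-05).

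POL2 (YNL262W), the catalytic subunit, had signals of 535, 338 and 490.0 on the esa1 sup2- arrays, 566, 659 and 527 on the ESA1 sup2- arrays and 452 and 418 on the ESA1 SUP2 arrays. It was not called in any comparison, and replicate 2 of esa1 sup2- was its lowest array. DPB4, the partner of Dpb3 and not among the 35, was also chosen after its values were seen and had signals of 1227, 1334 and 1119 on the esa1 sup2- arrays, 1566, 1315 and 1609 on the ESA1 sup2- arrays and 947 and 880.2 on the ESA1 SUP2 arrays. It was higher than in ESA1 SUP2 by 0.38 log2 units (SE 0.11, limma adjusted p = 0.011) in esa1 sup2- and 0.64 (SE 0.11, limma adjusted p = 1.4e-03) in ESA1 sup2-, and so differed in direction from DPB3 in esa1 sup2- against ESA1 SUP2. Between the mutants DPB4 was lower in esa1 sup2-, as DPB3 was (log2 fold change -0.26, SE 0.097, limma adjusted p = 0.039), though its arrays overlapped.

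Polymerase delta, which copies the lagging strand, had subunits with opposite calls. POL3 (YDL102W), its catalytic subunit, had signals of 521, 411 and 485 on the esa1 sup2- arrays, 557, 550.1 and 507 on the ESA1 sup2- arrays and 408 and 392 on the ESA1 SUP2 arrays. All mutant arrays lay above both ESA1 SUP2 arrays, by the least in replicate 2 of esa1 sup2-. POL3 was higher in ESA1 sup2- than in ESA1 SUP2 by 0.34 log2 units (SE 0.093, limma adjusted p = 0.015), a call lost without ESA1 sup2- replicate 1 (limma adjusted p = 0.050), ESA1 SUP2 replicate 1 (0.067) or ESA1 SUP2 replicate 2 (0.097), and with poly-A control scaling (0.127). The accessory subunits are not among the 35. POL31 had signals of 409, 369 and 358 on the esa1 sup2- arrays, 1964, 1782 and 2153 on the ESA1 sup2- arrays and 1640.1 and 1698 on the ESA1 SUP2 arrays. It was lower in esa1 sup2- than in ESA1 sup2- (log2 fold change -2.06, SE 0.085, limma adjusted p = 2.3e-07) and than in ESA1 SUP2 (log2 fold change -1.84, SE 0.10, limma adjusted p = 4.1e-07). POL32 ran in the opposite direction, with signals of 617, 649 and 549 on the esa1 sup2- arrays, 211, 232 and 195 on the ESA1 sup2- arrays and 98.7 and 92.1 on the ESA1 SUP2 arrays. It was higher in esa1 sup2- than in ESA1 sup2- by 1.12 log2 units (SE 0.075, limma adjusted p = 3.8e-06) and than in ESA1 SUP2 by 1.74 log2 units (SE 0.084, limma adjusted p = 2.6e-07), with no overlap between strains for either. POL32 lay under the filter level of 249 in ESA1 sup2- and ESA1 SUP2, and so passed the filter through esa1 sup2-.

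**Figure D3:**
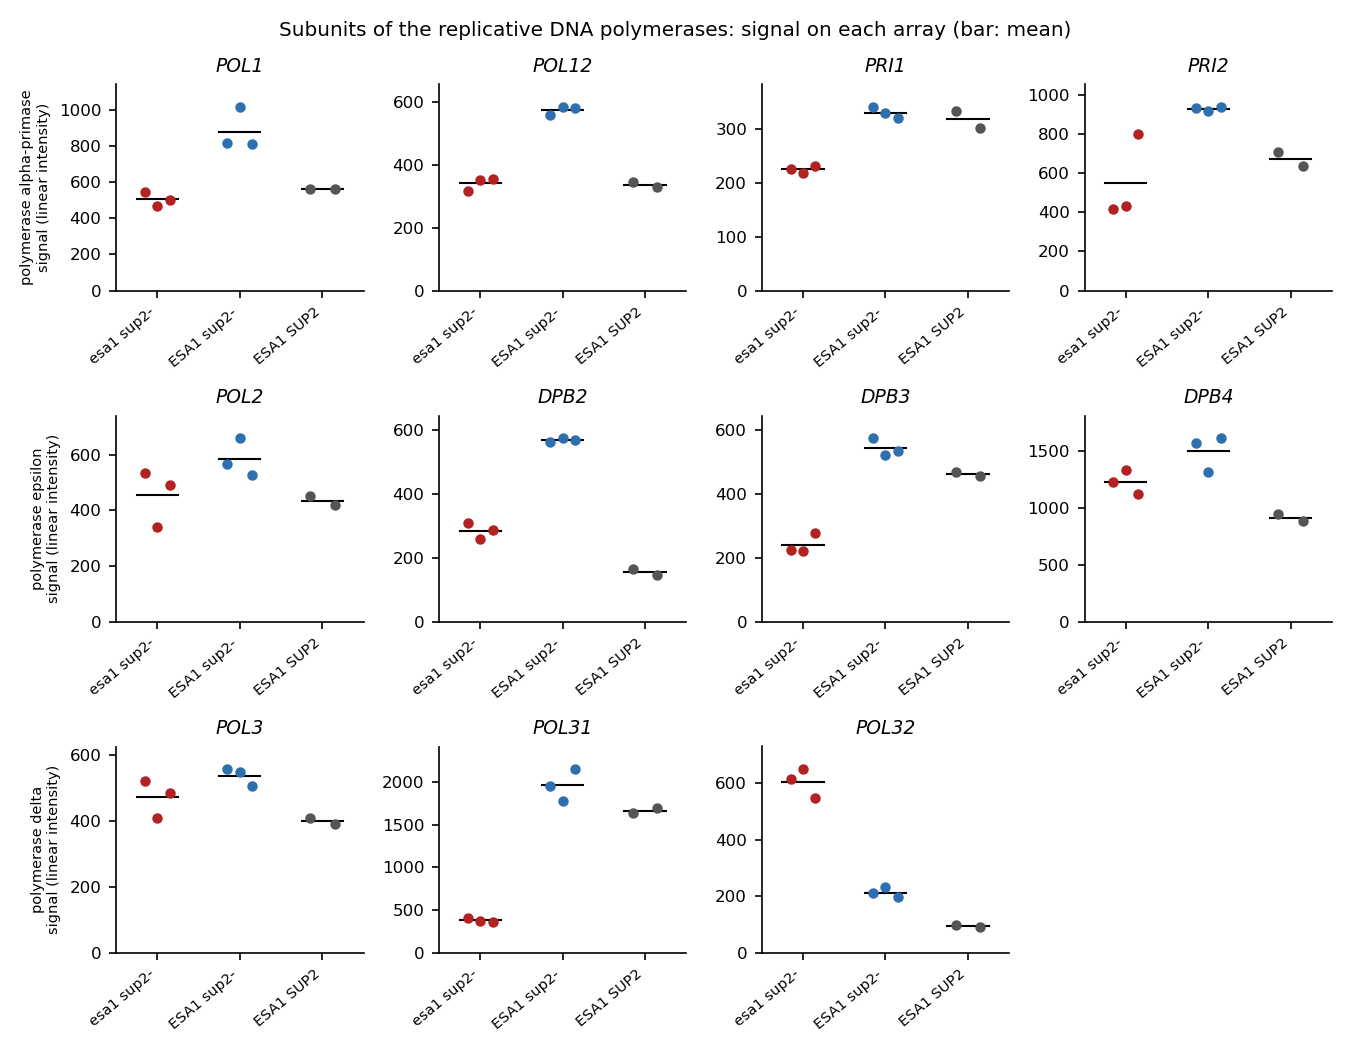
Signal (linear intensity, vertical axes from 0) of the subunit genes of polymerase alpha-primase (upper row), epsilon (middle row) and delta (lower row) on each array; points are arrays and bars are means. POL31 lies at 358 to 409 in esa1 sup2-, its lowest strain, and POL32 at 549 to 649, its highest.

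The sliding clamp gene POL30 (YBR088C) encodes PCNA, the ring that holds polymerases on DNA. It had signals of 2738, 4059 and 3148 on the esa1 sup2- arrays, 2578, 2896 and 2512 on the ESA1 sup2- arrays and 1289 and 1228 on the ESA1 SUP2 arrays. Every mutant array exceeded both ESA1 SUP2 arrays, and the mutants overlapped. POL30 was higher than in ESA1 SUP2 by 1.30 log2 units (SE 0.15, limma adjusted p = 4.1e-05) in esa1 sup2- and by 1.01 log2 units (SE 0.15, limma adjusted p = 6.0e-04) in ESA1 sup2-. Between the mutants the difference was 0.29 (limma adjusted p = 0.076), not called, and it was called without esa1 sup2- replicate 1 (0.41, limma adjusted p = 0.016).

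RFC5 (YBR087W), a clamp loader subunit whose gene lies next to POL30 on the chromosome, had signals of 1099.8, 1218 and 1070.3 on the esa1 sup2- arrays, 844, 869.9 and 838 on the ESA1 sup2- arrays and 657 and 578 on the ESA1 SUP2 arrays. The strains did not overlap, with esa1 sup2- highest and ESA1 SUP2 lowest. RFC5 was higher in esa1 sup2- than in ESA1 sup2- by 0.36 log2 units (SE 0.077, limma adjusted p = 2.8e-03), not called with hybridization control scaling (limma adjusted p = 0.050), and than in ESA1 SUP2 by 0.76 log2 units (SE 0.086, limma adjusted p = 4.6e-05). ESA1 sup2- exceeded ESA1 SUP2 by 0.40 log2 units (SE 0.086, limma adjusted p = 5.0e-03), which was lost without ESA1 SUP2 replicate 2 (limma adjusted p = 0.067) and with poly-A control scaling (0.087). RFC1 (YOR217W), the large subunit, had signals of 553, 464 and 482 on the esa1 sup2- arrays, 652, 635 and 639 on the ESA1 sup2- arrays and 476 and 465 on the ESA1 SUP2 arrays. Its ESA1 sup2- arrays lay above all others, and esa1 sup2- overlapped ESA1 SUP2. RFC1 was lower in esa1 sup2- than in ESA1 sup2- (log2 fold change -0.30, SE 0.073, limma adjusted p = 5.6e-03), and higher in ESA1 sup2- than in ESA1 SUP2 by 0.37 log2 units (SE 0.081, limma adjusted p = 5.5e-03). The first call was lost with quantile normalization, median centring or poly-A control scaling (as near 0 as -0.080, limma adjusted p up to 0.729). The second was lost without ESA1 SUP2 replicate 2 (limma adjusted p = 0.050) and with poly-A control scaling (0.104).

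The other loader subunits changed less. RFC3 (YNL290W) had signals of 725, 699 and 646 on the esa1 sup2- arrays, 758, 658 and 755 on the ESA1 sup2- arrays and 591 and 553 on the ESA1 SUP2 arrays, and all mutant arrays were above ESA1 SUP2. Its increases over ESA1 SUP2 were 0.23 (SE 0.088, limma adjusted p = 0.041) in esa1 sup2- and 0.28 (SE 0.088, limma adjusted p = 0.024) in ESA1 sup2-. The first call was lost without any 1 array except esa1 sup2- replicate 3 and ESA1 sup2- replicate 2 (limma adjusted p up to 0.211), and with hybridization control scaling. The second was lost without ESA1 sup2- replicate 1 (0.082) or 3 (0.084), or ESA1 SUP2 replicate 1 (0.078) or 2 (0.160), and with median centring or poly-A control scaling. RFC2 (YJR068W) had signals of 1039, 1042 and 1038 on the esa1 sup2- arrays, 992, 855 and 915 on the ESA1 sup2- arrays and 969 and 936 on the ESA1 SUP2 arrays, a narrow range in which the esa1 sup2- arrays were highest. RFC4 (YOL094C) had signals of 323, 462 and 381 on the esa1 sup2- arrays, 411, 510.5 and 424 on the ESA1 sup2- arrays and 432 and 457 on the ESA1 SUP2 arrays, which overlapped in all strains. Neither RFC2 nor RFC4 was called in any comparison.

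The 3 RPA genes encode the protein that coats single-stranded DNA. RFA2 (YNL312W), the middle subunit, had signals of 1186, 1091 and 1112 on the esa1 sup2- arrays, 1366, 1409 and 1330.1 on the ESA1 sup2- arrays and 965 and 899 on the ESA1 SUP2 arrays. The strains did not overlap, with ESA1 sup2- highest and ESA1 SUP2 lowest. RFA2 was lower in esa1 sup2- than in ESA1 sup2- (log2 fold change -0.25, SE 0.07, limma adjusted p = 0.011), a call lost with median centring or poly-A control scaling (as near 0 as -0.012, limma adjusted p up to 0.963). It was higher than in ESA1 SUP2 by 0.50 log2 units (SE 0.078, limma adjusted p = 8.8e-04) in ESA1 sup2-. The increase in esa1 sup2- over ESA1 SUP2, 0.25 (SE 0.078, limma adjusted p = 0.017), was lost without ESA1 SUP2 replicate 2 (0.20, limma adjusted p = 0.139) and with hybridization control scaling. RFA3 (YJL173C), the small subunit, had signals of 2083, 2649 and 2363 on the esa1 sup2- arrays, 2618, 2574 and 2496 on the ESA1 sup2- arrays and 1815 and 1639 on the ESA1 SUP2 arrays. Both mutants were above ESA1 SUP2 and overlapped, with increases of 0.42 (SE 0.10, limma adjusted p = 4.6e-03) in esa1 sup2- and 0.54 (SE 0.10, limma adjusted p = 2.6e-03) in ESA1 sup2-. The esa1 sup2- call was lost without ESA1 SUP2 replicate 2 (limma adjusted p = 0.050). RFA1 (YAR007C), the large subunit that holds the DNA, had signals of 782, 886 and 855 on the esa1 sup2- arrays, 1032, 1093 and 986 on the ESA1 sup2- arrays and 968 and 861 on the ESA1 SUP2 arrays. It was lower in esa1 sup2- than in ESA1 sup2- (log2 fold change -0.27, SE 0.079, limma adjusted p = 0.015), with no overlap, a call also lost with median centring or poly-A control scaling (as near 0 as -0.036, limma adjusted p up to 0.886). It was not called against ESA1 SUP2.

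Both Okazaki fragment genes were higher in the mutants than in ESA1 SUP2. CDC9 (YDL164C), the DNA ligase that seals the fragments, had signals of 406, 411 and 412 on the esa1 sup2- arrays, 506, 531 and 510.4 on the ESA1 sup2- arrays and 313 and 295 on the ESA1 SUP2 arrays. The strains did not overlap, with ESA1 sup2- highest. CDC9 was higher than in ESA1 SUP2 by 0.32 log2 units (SE 0.066, limma adjusted p = 1.9e-03) in esa1 sup2- and 0.58 (SE 0.066, limma adjusted p = 1.8e-04) in ESA1 sup2-, and lower in esa1 sup2- than in ESA1 sup2- (log2 fold change -0.26, SE 0.059, limma adjusted p = 3.8e-03). That last call was lost with quantile normalization, median centring or poly-A control scaling (as near 0 as -0.054, limma adjusted p up to 0.807). RAD27 (YKL113C), the flap nuclease, had signals of 442, 444 and 896 on the esa1 sup2- arrays, 532, 521 and 504 on the ESA1 sup2- arrays and 322 and 273 on the ESA1 SUP2 arrays. Replicate 3 of esa1 sup2- was well over the others, as it was for PRI2. RAD27 was higher than in ESA1 SUP2 by 0.72 log2 units (SE 0.23, limma adjusted p = 0.018) in esa1 sup2-, a call lost without ESA1 SUP2 replicate 2 (limma adjusted p = 0.103). The increase in ESA1 sup2- over ESA1 SUP2, 0.62 (SE 0.23, limma adjusted p = 0.049), was lost on leaving out any 1 array of those 2 strains (limma adjusted p = 0.088 to 0.218), and with median centring, a pseudocount 4 times as large, no filter or robust variance moderation.

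Arrays of 1 strain also differed in these genes, and a few genes account for the widest differences. In ESA1 sup2-, replicate 2 was above the mean of replicates 1 and 3 by 0.58 log2 units for RNR1, 0.53 for PCL1, 0.30 for CLN1, 0.28 for POL1, 0.25 for CDC45 and 0.24 for CLN2. Over the 32 genes the median of that difference was 0.054, and over all probe sets 0.018. In esa1 sup2-, replicate 2 was above the mean of the other 2 arrays by 0.47 for RNR1 and 0.45 for POL30, and below it by -0.46 for POL2 and -0.39 for CLN2. Replicate 3 of esa1 sup2- was above its partners by 0.85 for RAD27 and 0.75 for PRI2. SLD2 (YKL108W), STE3 (YKL178C) and STE6 (YKL209C), chosen after their values were seen, were also brightest on that array of the strain. Their esa1 sup2- signals were 119, 114 and 240 for SLD2, 846, 729 and 1799 for STE3, and 59.1, 53.0 and 131 for STE6. Like RAD27 and PRI2, they have locus names that begin with YKL, the left arm of chromosome XI. The cause of this shared rise was not tested. RNR1 and CLN2 were among the 6 genes of widest spread in each of the 3 strains. The median SD of the 32 genes within a strain was 0.110 in esa1 sup2-, 0.0553 in ESA1 sup2- and 0.0596 in ESA1 SUP2, against 0.128, 0.0729 and 0.0473 over all probe sets tested.

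**Figure D4:**
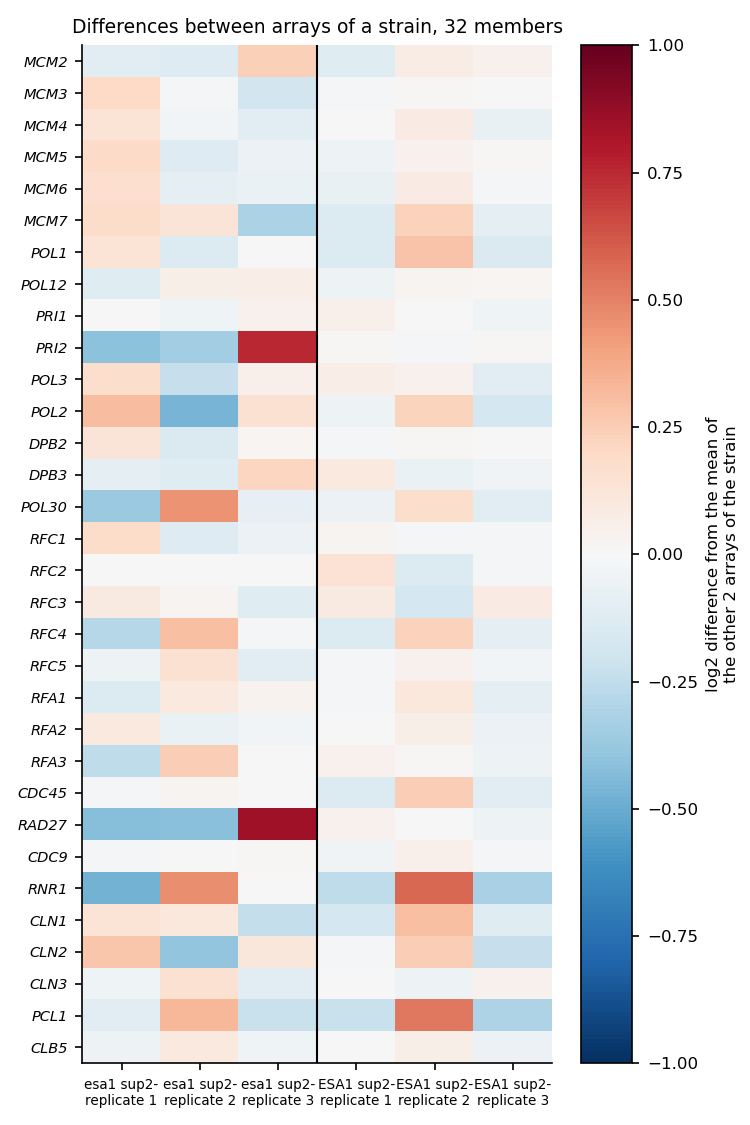
Difference of each array from the mean of the other 2 arrays of its strain (colour, log2 units, red above and blue below) for the 32 tested genes, in esa1 sup2- (left) and ESA1 sup2- (right). Replicate 2 of ESA1 sup2- is above its partners for RNR1 and PCL1, and replicate 3 of esa1 sup2- for RAD27 and PRI2.

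A longer list of 72 further genes of the pathway, of which 55 passed the filter, was read from the same fit. Of these, 13 lay under the filter level in at least 1 strain. In ESA1 sup2- against ESA1 SUP2, 25 of the 55 were called higher and 2 lower (median 0.25), against a background of 28.5% and 22.1%. Between the mutants, 9 were higher in esa1 sup2- and 25 lower (median -0.13), against 31.8% and 35.8%, and with poly-A control scaling 15 were higher and 9 lower. For esa1 sup2- against ESA1 SUP2 the counts were 20 higher and 13 lower (median 0.094), against 37.9% and 36.6%.

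Of 13 tested regulators of G1/S in that list, 8 were lower (61.5%) and 1 higher in esa1 sup2- than in ESA1 sup2-, against a background of 35.8% lower and 31.8% higher. Against ESA1 SUP2, 7 were lower (53.9%) and 3 higher in esa1 sup2-, where the background was 36.6% and 37.9%. SWI6, the shared subunit of SBF and MBF, had signals of 257, 252 and 235 on the esa1 sup2- arrays, 447, 598 and 581 on the ESA1 sup2- arrays and 431 and 421 on the ESA1 SUP2 arrays, so that esa1 sup2- lay below both other strains. It was lower in esa1 sup2- than in ESA1 sup2- (log2 fold change -0.84, SE 0.094, limma adjusted p = 7.1e-05) and than in ESA1 SUP2 (log2 fold change -0.57, SE 0.11, limma adjusted p = 9.7e-04). SWI6 was chosen after its values were seen. SIC1, the inhibitor of S-phase cyclin kinases, was lower in esa1 sup2- than in ESA1 sup2- (log2 fold change -1.02, SE 0.093, limma adjusted p = 2.1e-05). NRM1, an MBF target and corepressor that shuts MBF genes off, ran the other way with signals of 531, 722 and 628 on the esa1 sup2- arrays, 322, 335 and 292 on the ESA1 sup2- arrays and 138 and 135 on the ESA1 SUP2 arrays. Its increases over ESA1 SUP2 and ESA1 sup2- were 1.53 (SE 0.11, limma adjusted p = 2.3e-06) and 0.77 (SE 0.10, limma adjusted p = 1.3e-04) in esa1 sup2-. NRM1 lay under the filter level in ESA1 SUP2, and SWI6 just under it by its mean in esa1 sup2- (248). Each passed through the strains in which it was brighter.

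XBP1, a repressor of cyclin genes that is induced by stress and starvation, had signals of 542, 545 and 462 on the esa1 sup2- arrays, 838, 846 and 899 on the ESA1 sup2- arrays and 1799 and 1802 on the ESA1 SUP2 arrays. Both mutants lay far below ESA1 SUP2, with log2 fold changes of -1.59 (SE 0.086, limma adjusted p = 5.3e-07) in esa1 sup2- and -0.97 (SE 0.086, limma adjusted p = 5.4e-05) in ESA1 sup2-. PHO85, the kinase partner of Pcl1, was lower in esa1 sup2- than in ESA1 SUP2 (log2 fold change -0.79, SE 0.076, limma adjusted p = 1.5e-05).

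At origins and forks, CTF4, which ties the helicase to polymerase alpha, had signals of 308, 299 and 267 on the esa1 sup2- arrays, 782, 738 and 711 on the ESA1 sup2- arrays and 615 and 594 on the ESA1 SUP2 arrays. It was lower in esa1 sup2- than in ESA1 sup2- (log2 fold change -1.07, SE 0.07, limma adjusted p = 3.4e-06) and than in ESA1 SUP2 (log2 fold change -0.82, SE 0.078, limma adjusted p = 1.6e-05). CDC7, the kinase that triggers origins, was higher than in ESA1 SUP2 by 0.95 log2 units (SE 0.084, limma adjusted p = 9.3e-06) in esa1 sup2- and 0.79 (SE 0.084, limma adjusted p = 1.3e-04) in ESA1 sup2-. RRM3, a helicase that helps forks through obstacles, had signals of 659, 611 and 641 on the esa1 sup2- arrays, 546, 453 and 645 on the ESA1 sup2- arrays and 173 and 145 on the ESA1 SUP2 arrays, and was higher than in ESA1 SUP2 by 1.44 log2 units (SE 0.12, limma adjusted p = 5.6e-06) in esa1 sup2- and 1.25 (SE 0.12, limma adjusted p = 6.7e-05) in ESA1 sup2-. CAC2, of the chromatin assembly factor behind forks, was lower in esa1 sup2- than in ESA1 sup2- (log2 fold change -0.87, SE 0.11, limma adjusted p = 1.4e-04) and higher in ESA1 sup2- than in ESA1 SUP2 by 0.87 log2 units (SE 0.12, limma adjusted p = 5.8e-04). By group, 11 tested genes of origin recognition, licensing and firing gave 1 higher and 2 lower calls between the mutants, 14 fork genes gave 3 and 8, 8 genes of nucleotide supply gave 3 and 1, and 9 of cohesion and chromatin assembly gave 1 and 6. Some of these genes lay under the filter level in at least 1 strain and passed through the strains in which they were brighter. They were ORC5, CDC7 and SLD5 of the origin genes, POL32, DCC1, EXO1, MRC1, TOP1 and RRM3 of the fork genes, and MSI1 and MCD1 of the last group. The counts of those groups therefore depend in part on the filter. The background between the mutants was 31.8% higher and 35.8% lower (67.6% called), and the origin group, with 27.3% called, and the nucleotide group, with 50.0%, lay below it.

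Single genes outside G1/S also differed between the strains. Of 14 G2/M genes, which act late in the cycle, 12 were tested. Of these, 7 (CLB4, SWI5, CDC20, BUD4, MYO1, KIN4 and CDC15) lay under the filter level in at least 1 strain. They passed through the strains in which they were brighter, so no count or median over this list is given. DBF2, a mitotic exit kinase, exceeded ESA1 SUP2 by 0.74 log2 units (SE 0.075, limma adjusted p = 2.2e-05) in esa1 sup2- and 1.03 (SE 0.075, limma adjusted p = 2.0e-05) in ESA1 sup2-. CDC20, an activator of the anaphase complex, was higher than in ESA1 SUP2 by 0.58 log2 units (SE 0.083, limma adjusted p = 2.0e-04) in esa1 sup2- and 1.01 (SE 0.083, limma adjusted p = 4.1e-05) in ESA1 sup2-. The mitotic cyclin CLB4 was higher by 0.71 log2 units (SE 0.072, limma adjusted p = 2.2e-05) in esa1 sup2- and 0.88 (SE 0.072, limma adjusted p = 3.9e-05) in ESA1 sup2-. Between the mutants both were lower in esa1 sup2-, CDC20 by -0.43 (limma adjusted p = 9.4e-04) and CLB4 by -0.17 (limma adjusted p = 0.043). BUD4 and IQG1, of the bud neck, were lower in esa1 sup2- than in ESA1 sup2-, with log2 fold changes of -0.80 (SE 0.083, limma adjusted p = 4.6e-05) and -0.57 (SE 0.081, limma adjusted p = 2.8e-04).

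Of 15 early meiotic genes, 11 were among the dimmest 20% and were not tested. Of the 4 that passed, DMC1, IME1 and IME2 lay under the filter level in at least 1 strain and passed through the strains in which they were brighter, so their values are given with no count over the list. DMC1, the meiotic recombinase, had signals of 123, 122 and 138 on the esa1 sup2- arrays, 2657, 2491 and 2702 on the ESA1 sup2- arrays and 219 and 212 on the ESA1 SUP2 arrays, so ESA1 sup2- stood far above both other strains. SLZ1, a sporulation gene, had signals of 250.1, 279 and 239 on the esa1 sup2- arrays, 2217, 1734 and 2208 on the ESA1 sup2- arrays and 278 and 284 on the ESA1 SUP2 arrays and the same pattern. IME1, the inducer of meiosis, was lower in esa1 sup2- than in ESA1 SUP2 (log2 fold change -1.43, SE 0.10, limma adjusted p = 1.9e-06), and the kinase gene IME2 was higher by 1.04 log2 units (SE 0.11, limma adjusted p = 3.0e-05). IME1 was not raised in ESA1 sup2-, with signals of 471, 422 and 496 against 599 and 536 in ESA1 SUP2 (-0.24, limma adjusted p = 0.069, not called). Among the untested genes, MER1 and REC104 also had every ESA1 sup2- array below both ESA1 SUP2 arrays. REC114 overlapped, and the other untested genes lay above. MER1, REC104 and REC114 were chosen after their values were seen.

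Of 13 genes of mating type and haploid cells, 7 passed the filter, MF(ALPHA)2 through esa1 sup2- and HO through the mutants, and no count over this list is given either. MF(ALPHA)2, an alpha pheromone gene, had signals of 758, 305 and 2227 on the esa1 sup2- arrays, 77.3, 61.5 and 62.3 on the ESA1 sup2- arrays and 152 and 158 on the ESA1 SUP2 arrays, which spread widely in esa1 sup2-. STE3, the receptor for the a pheromone, had signals of 846, 729 and 1799 on the esa1 sup2- arrays, 333, 351 and 294 on the ESA1 sup2- arrays and 825 and 708 on the ESA1 SUP2 arrays. It was higher in esa1 sup2- than in ESA1 sup2- by 1.38 log2 units (SE 0.26, limma adjusted p = 1.4e-03) and lower in ESA1 sup2- than in ESA1 SUP2 (log2 fold change -0.99, SE 0.29, limma adjusted p = 0.020). FUS3 was lower in esa1 sup2- than in ESA1 sup2- (-0.34, limma adjusted p = 0.015) and than in ESA1 SUP2 (-0.49, limma adjusted p = 3.1e-03). GPA1, STE4 and MF(ALPHA)1 were called higher between the mutants. FUS3 and these were chosen after their values were seen. HO, the mating type endonuclease gene and an SBF target, had signals of 531, 773 and 468 on the esa1 sup2- arrays, 359, 579 and 347 on the ESA1 sup2- arrays and 135 and 161 on the ESA1 SUP2 arrays. Every mutant array was above both ESA1 SUP2 arrays, and HO exceeded ESA1 SUP2 by 1.38 log2 units (SE 0.21, limma adjusted p = 2.8e-04) in esa1 sup2-. The part of these genes in the G1/S and replication results was not tested.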

How the data were processed

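RNA was hybridised to 8 Affymetrix yeast arrays after hot phenol extraction and biotin labelling, per the labels' protocols. Each deposited value is a linear intensity of 1 probe set, and the submitters' processing notes name MAS5 and GCOS for it, with settings and versions not given in the sources used here. From the instrument records that the authors deposited, nothing but fluidics station and module was read. They hold a station of 2 for esa1 sup2-, 3 for ESA1 sup2- and 1 for ESA1 SUP2.

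Of 10928 probe sets, 5498 were of 1 S. cerevisiae gene by the platform annotation, with names updated through the RefSeq gene table for assembly R64. A further 1746 were of genes outside that table and 3470 had no gene listed. Values were put on a log2(signal + 121) scale without further normalization, 121 being the rounded-up 10th percentile of the S. cerevisiae signals. The dimmest 20% by mean were left out. A log2 fold change on this scale understates the change of dim genes. All 8 arrays entered 1 linear model in limma 3.58.1 (R 4.3.3), moderated by eBayes with a trend on intensity. A probe set was called where its p, adjusted by Benjamini and Hochberg's method over 4398 probe sets, was under 0.05. The number of arrays, 2 or 3 a strain, limits the precision. The model and calling steps were run on simulated arrays with independent noise and known changes in a small part of the probe sets. Those arrays held no array-wide, scaling or station effects, so they cannot show how the calls fare under such effects.

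The 35 genes, the 72 further pathway genes and the G2/M, meiotic and mating lists were chosen with earlier results of these data known, so no list is independent evidence of its direction. Signals on every array are given for members with the largest difference of their role, with opposite or no calls, and for the cyclin genes, SWI4 and RNR1, and in practice for all 35. Of the further genes, the 4 highest and 4 lowest called in each comparison are named, and 2 of each other list, besides genes marked as chosen after their values were seen. Replicate numbers were not taken to pair the samples. Deviations of same-numbered arrays from their strain means correlated at -0.0931 to 0.142, and those of differently numbered arrays at -0.142 to 0.128. Such deviations sum to 0 within a strain of 2 or 3 arrays, so this check cannot exclude pairing. Alternatives were other pseudocounts, normalizations, control scalings, filters, variance models, each array left out in turn, and a block for the replicate number, and the fluidics module as a block was added after seeing the data. Promoter and protein sequences were not used here. Figures were drawn with matplotlib 3.10.9.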

Additional observations from a re-analysis of the deposited data

How the results depend on the processing

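The number of arrays limits every value. Of 60 calls of single genes among the 32 over the 3 comparisons, 29 were tested in all 22 alternatives, and 15 of these were kept in each and 14 lost in at least 1. The other 31 were not tested with the dimmest 50% left out, and 16 of them were kept in the 21 alternatives run. Over the settings that tested all 32, the median of the 32 minus that of all probe sets kept its sign, at -0.21 to -0.10 for esa1 sup2- against ESA1 sup2-, 0.087 to 0.20 for esa1 sup2- against ESA1 SUP2 and 0.28 to 0.46 for ESA1 sup2- against ESA1 SUP2.

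With each array left out in turn, the counts for esa1 sup2- against ESA1 sup2- were 1 to 5 higher and 13 to 15 lower, for esa1 sup2- against ESA1 SUP2 11 to 15 higher and 3 to 5 lower, and for ESA1 sup2- against ESA1 SUP2 13 to 23 higher and 0 lower. For the 55 other pathway genes these ranges were 7 to 9 higher and 21 to 24 lower, 15 to 20 higher and 10 to 14 lower, and 16 to 28 higher and 2 to 3 lower, with 16 higher without ESA1 SUP2 replicate 2. Calls also appeared on leaving out 1 array. Without esa1 sup2- replicate 1, MCM6 (limma adjusted p = 0.031) and POL2 (0.030) were lower in esa1 sup2- than in ESA1 sup2-, and MCM6 was higher in ESA1 sup2- than in ESA1 SUP2 (0.048). Without replicate 2 of that strain, RFC4 was lower than in ESA1 sup2- (0.039), and POL3 in esa1 sup2- (0.012) and POL2 in ESA1 sup2- (0.015) were above ESA1 SUP2. Without its replicate 3, MCM2 was lower than in ESA1 sup2- (0.017) and DPB3 in ESA1 sup2- was above ESA1 SUP2 (0.049).

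Among the 32, the counts that moved by over 1.5 times in esa1 sup2- against ESA1 sup2- were 8 lower with median centring, 6 lower with poly-A control scaling, 5 lower with the dimmest 50% left out (14 genes tested), 1 higher with hybridization control scaling and 2 higher when the fit held the 2 strains alone. In esa1 sup2- against ESA1 SUP2 they were 2 lower with quantile normalization and with median centring, 1 lower with poly-A scaling, and 9 higher and 1 lower with the dimmest 50% left out. In ESA1 sup2- against ESA1 SUP2 the last filter left 11 higher. For the other pathway genes, esa1 sup2- against ESA1 sup2- gave 17 higher with quantile normalization, 19 with median centring, and 15 higher and 9 lower with poly-A scaling. Lower calls numbered 6 with poly-A scaling and 22 with no filter in esa1 sup2- against ESA1 SUP2, and 1 with poly-A scaling in ESA1 sup2- against ESA1 SUP2. With the dimmest 50% left out (18 tested) the 3 comparisons gave 4 higher and 9 lower, 7 and 5, and 8 higher. The last filter also tested fewer genes, and the cause of these changes was not tested. The poly-A factor of esa1 sup2- replicate 1 was 0.707, against 0.978 to 1.13 on the other arrays. It turned CLB5 between the mutants to 0.037 and MCM5 in esa1 sup2- against ESA1 SUP2 to 0.0024. Of all probe sets called, 47.0% were higher as deposited for esa1 sup2- against ESA1 sup2-, 60.0% with median centring, 37.6% with hybridization controls and 70.1% with poly-A controls, and for ESA1 sup2- against ESA1 SUP2 the 4 shares were 56.3%, 48.0%, 70.5% and 72.4%. For esa1 sup2- against ESA1 SUP2 it was 50.9% as deposited and 70.1% with poly-A controls.

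The replicate block, with numbers that the check did not show to pair samples, gave 3 higher and 13 lower for esa1 sup2- against ESA1 sup2-, 14 and 4 for esa1 sup2- against ESA1 SUP2, and 20 and 0 for ESA1 sup2- against ESA1 SUP2. For the other pathway genes it gave 8 and 23, 18 and 13, and 23 and 2. The fluidics module as a block gave 4 and 14, 15 and 4, and 20 and 0 among the 32. Between the mutants, CDC45 and CLB5 lost their calls with either block, and CLN3 with the replicate block. MCM5 and RFC3 lost theirs in esa1 sup2- against ESA1 SUP2 with either block. In ESA1 sup2- against ESA1 SUP2, RAD27 lost its call with the replicate block, and MCM3 and RFC3 with the module. With the 2 strains alone in the fit, CDC45, CLB5, CLN3 and RNR1 were not called between the mutants. Nor were MCM5, RFC3 and RFA2 in esa1 sup2- against ESA1 SUP2. The alternatives on promoter motifs were not run, since promoter sequences were not used here.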
